A study of Homo sapiens with 3 samples.

Results

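The genes described here encode the integrins, the laminins and the hemidesmosome proteins, which together fasten an epithelial cell to its basement membrane. They are 41 of the 62754 genes in the deposited table, chosen by symbol in GENCODE release 44 and found by their Ensembl identifiers: 18 integrin alpha chains, 8 integrin beta chains, 11 laminin chains and 4 further hemidesmosome genes. The samples are 3 replicates of MCF10A, an immortalized line of non-tumorigenic human breast epithelial cells, which carried the empty retroviral vector of a doxycycline-inducible expression system, were selected with puromycin and were harvested without doxycycline or any other treatment during exponential growth. All replicates share 1 condition and 1 batch, so no group could be compared with another, and nothing in the labels says whether they came from separate cultures. Levels are given as TPM (transcripts per 1000000), reads per base of transcript, scaled so that each replicate has the same sum. Recovered from these values, the reads behind them numbered 15273329, 15446347 and 11166546 in replicates 1, 2 and 3.

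An integrin is a pair of 1 alpha and 1 beta chain, and both chains must be made before the receptor reaches the cell surface. A laminin is a trimer of 1 alpha, 1 beta and 1 gamma chain that is assembled inside the cell and secreted into the basement membrane. In basal cells of the mammary gland and the skin, the integrin of ITGA6 and ITGB4 grips the laminin that combines LAMA3 with LAMB3, and on the inner face of the membrane plectin (PLEC) and the epithelial form of dystonin (DST) tie it to keratin filaments, with COL17A1 and the tetraspanin CD151 as further membrane components. The third chain of that laminin is not on the list and was not analysed here.

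The cells were checked against markers. All 5 basal epithelial markers (KRT5, KRT14, KRT17, TP63 and CDH3) were above 1 TPM, with a summed level between 11536 and 14889 TPM in the replicates, and 4 of 5 luminal epithelial markers were, with a sum between 508 and 607 TPM and KRT19 at 0.0457 TPM on average. Markers of other cells had summed levels between 4.58 and 6.50 TPM for leukocytes (2 of 5 genes above 1 TPM), between 1.77 and 2.16 TPM for endothelium (1 of 4), between 13.6 and 14.8 TPM for fibroblasts (2 of 4) and between 0.758 and 1.41 TPM for muscle (0 of 4), and all 4 markers of megakaryocytes and platelets had 0 reads.

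ITGA6, LAMB3 and ITGB4 had the highest mean levels of the list as deposited. By the mean of the replicates, 26 of the 41 reached 1 TPM, the level the study used as its cutoff for expression, which is 63.4% of them. The same cutoff was passed by 24.9% of all genes in the table and by 56.7% of protein-coding genes. All 26 passed it in every replicate, as 55.2% of protein-coding genes did. The count was 9 of 18 among the alpha chains, 6 of 8 among the beta chains, 7 of 11 among the laminin chains and 4 of 4 among the hemidesmosome genes, and 13 genes had a mean of at least 100 TPM. ITGA6 had the highest mean of the list and ranked 132 among the 20046 protein-coding genes. LAMB3, ITGB4, ITGB1, PLEC, COL17A1, LAMA3 and ITGA3 followed, with ranks from 163 to 393. This order depends on the transcript lengths used. With the canonical lengths used below, the means were 662 TPM for ITGA6, 637 for ITGB1, 580 for LAMB3 and 457 for ITGB4. In replicate 3 ITGB1 was then above ITGA6, at 603 against 585 TPM. The plot of all members by replicate shows that the replicates of a gene lay close together where its level was above 1 TPM and further apart for most genes with reads below it.

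**Figure D1:**
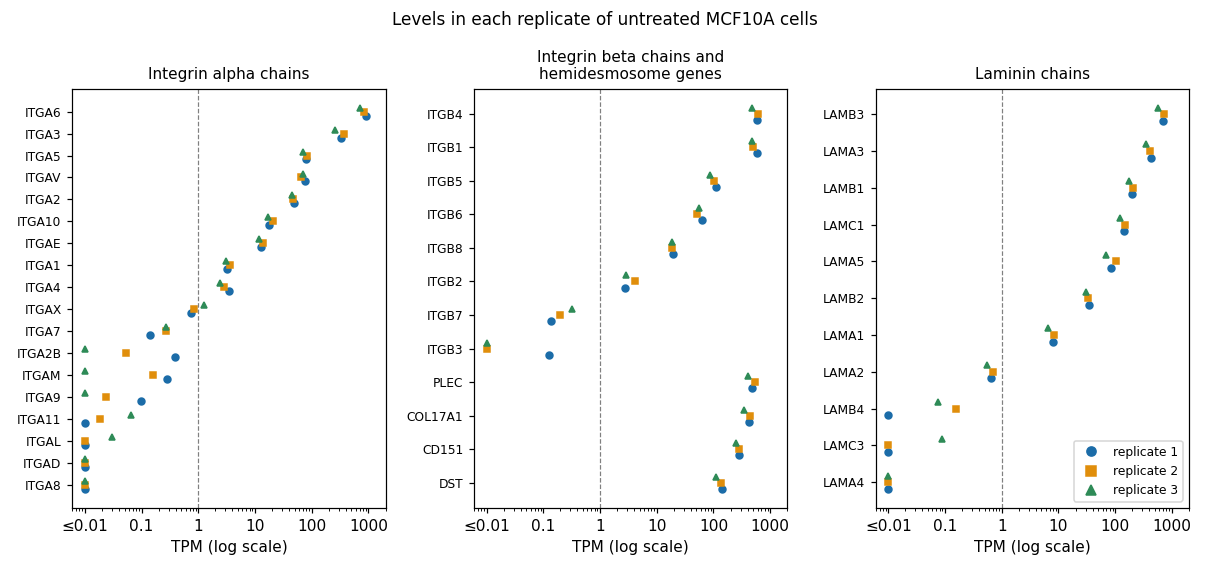
TPM of the 41 genes on a log axis in replicates 1, 2 and 3 (circles, squares and triangles), by class and ordered by the mean, with the cutoff of 1 TPM as a dashed line and values of 0.01 or less drawn at 0.01. The 26 genes above the line were above it in every replicate, and ITGAX was the one gene on both sides of it.

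Because TPM divides by length, the transcript assumed for a gene sets its level. The deposited values used the longest annotated transcript of each gene. For LAMA3 and DST that transcript is not the one best known from epithelial cells. RefSeq lists a LAMA3 start 183567 bases downstream of the start of its long transcript and a DST start 311941 bases downstream, and short transcripts of both genes begin there in GENCODE. The LAMA3 transcript from the internal start has 5580 counted bases against 10576, and the DST transcript has 8947 against 24605, where counted bases are the exon bases less 1 for each exon, as in the deposited values. The windows of 250 bases before these starts are shown because the choice of transcript changes how LAMA3 and DST compare with other genes. A LAMB3 window, before a start 1051 bases downstream of that of its canonical transcript, is shown beside them as the other window of the list that holds TGANTCA, and no level was computed from that start. The sequences are RefSeq's for GRCh38.p14. Capitals mark TGANTCA, with any base at N, and TATAA, searched on the strand of the gene. TGANTCA reads the same on both strands and is wider than the letters recognized by AP-1 factors, TGACTCA or TGAGTCA. Each marked copy has 1 of these 2 forms, whereas shares over all windows count any base at N.
LAMA3, chr18:23872770-23873019, plus strand: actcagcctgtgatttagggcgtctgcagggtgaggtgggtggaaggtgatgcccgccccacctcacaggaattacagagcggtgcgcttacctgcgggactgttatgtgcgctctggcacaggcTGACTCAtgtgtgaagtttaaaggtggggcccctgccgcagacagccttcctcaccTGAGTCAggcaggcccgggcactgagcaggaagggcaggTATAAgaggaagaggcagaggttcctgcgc
LAMB3, chr1:209651375-209651624, minus strand: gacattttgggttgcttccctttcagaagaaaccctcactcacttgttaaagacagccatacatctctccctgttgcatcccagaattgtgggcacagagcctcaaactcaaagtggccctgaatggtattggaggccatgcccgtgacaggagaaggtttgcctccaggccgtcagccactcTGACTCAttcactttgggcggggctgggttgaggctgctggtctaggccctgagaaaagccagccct
DST, chr6:56642890-56643139, minus strand: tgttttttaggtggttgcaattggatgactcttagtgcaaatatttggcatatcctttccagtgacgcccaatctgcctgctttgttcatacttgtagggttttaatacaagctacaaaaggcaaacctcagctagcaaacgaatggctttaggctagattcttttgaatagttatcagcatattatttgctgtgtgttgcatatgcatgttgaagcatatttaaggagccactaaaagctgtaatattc
The LAMA3 window holds TGANTCA at 125 and at 69 bases before the start and TATAA at 30 bases before it. The LAMB3 window holds TGANTCA at 67 bases before its start, while the other 2 LAMB3 windows in RefSeq, 1 of them at the canonical start, hold 0 copies. Neither set of letters occurs in the DST window. RefSeq windows were found for 28 of the 41 genes, 37 windows in all, and those for CD151, ITGA3, ITGA7, ITGA9, ITGAD, ITGAL, ITGAX, ITGB2, ITGB3, ITGB4, LAMA1, LAMC3 and PLEC were not. TGANTCA was present in 2 of the 37 windows (5.41%) and in 6.57% of all 35116 RefSeq windows, and TATAA in 6 (16.2%) against 13.6%. At least 2 copies of TGANTCA, as before LAMA3, were present in 0.402% of all windows. The number of CG dinucleotides in a window had a median of 12 over the 29 windows of 20 genes at or above 1 TPM, close to the median of 11 over all RefSeq windows. It was 3.5 over the 8 windows of genes below 1 TPM, with ranges of 0 to 39 and 1 to 23 that overlap.

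LAMA3 (ENSG00000053747, chromosome 18 of hg38 from 23689453 to 23956222) was measured at 426, 407 and 345 TPM as deposited. If all of its reads came from the short transcript, the same reads would give 808, 771 and 653 TPM. LAMB3 (ENSG00000196878, chromosome 1 from 209614870 to 209652425) was measured at 686, 737 and 568 TPM. LAMA3 was thus below LAMB3 in every replicate as deposited, with a ratio of 0.593 ± 0.0368 (SD, n = 3). With the short length of LAMA3 and the longest of LAMB3 it was above LAMB3 in every replicate, with a ratio of 1.12 ± 0.0697 (SD, n = 3). The longest LAMB3 transcript has 4283 counted bases and its canonical transcript 3991. The ratio with both genes shortened was not computed and would be lower, so whether LAMA3 would stay above LAMB3 in every replicate was not determined. The deposited values do not tell the transcripts apart. They allow a LAMA3 chain from somewhat scarcer than LAMB3 to slightly more abundant, where the upper end rests on the longest LAMB3 transcript.
DST (ENSG00000151914, chromosome 6 from 56457987 to 56954830), which holds the epithelial dystonin of hemidesmosomes as well as longer forms of nerve and muscle, was measured at 139, 134 and 113 TPM. With the short length it would be at 382, 368 and 310 TPM, a factor of 2.75 in each replicate. As deposited, DST was the lowest of the 4 hemidesmosome genes. With the short length it was above CD151 and below COL17A1 in every replicate.

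**Figure D2:**
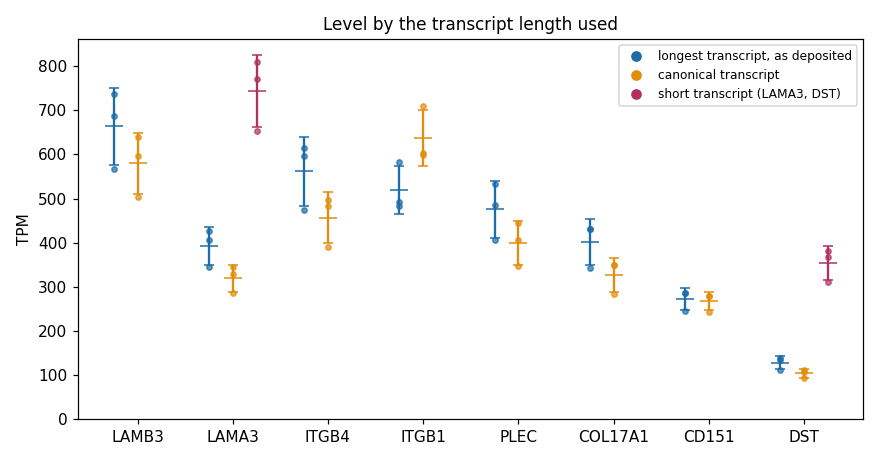
TPM of 8 genes with the longest transcript as deposited, with the canonical transcript after scaling all genes to the same sum again, and for LAMA3 and DST with the short transcript (dots for replicates, dash and bar for mean and SD, n = 3). As deposited LAMA3 lies below LAMB3, and its short-length mean lies above the LAMB3 mean as deposited. ITGB1 lies above ITGB4 with the canonical length.

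ITGA6, ITGB4, ITGB1 and ITGA3, which are chains of laminin receptors, had the highest RNA levels of the integrin chains. ITGA6 (ENSG00000091409, chromosome 2 from 172427354 to 172506459), the alpha chain of hemidesmosomes, was measured at 907, 824 and 707 TPM. It was the highest alpha chain in each replicate and made up 59.5 ± 1.56% (SD, n = 3) of the TPM of all 18 alpha chains. ITGA3, which binds the same laminins in focal contacts, was measured at 334, 363 and 256 TPM. With ITGA6 it accounted for 82.8 ± 1.22% (SD, n = 3) of the alpha chains. ITGA7, the laminin receptor of muscle, had 3, 6 and 5 reads and a mean of 0.226 TPM.
ITGB4 (ENSG00000132470, chromosome 17 from 75721328 to 75757818), the beta chain that pairs with ITGA6 alone, was measured at 596, 615 and 473 TPM. ITGB1, the common partner of 12 alpha chains, was measured at 583, 492 and 484 TPM. The 2 genes were not separated, since ITGB4 was higher in 2 of 3 replicates and the mean log2 ratio of 0.11 was smaller than its SD of 0.19. Together they made up 85.8 ± 0.468% (SD, n = 3) of the TPM of all beta chains. The longest annotated transcript of ITGB1 has 5599 counted bases and its canonical transcript 3719. With canonical lengths ITGB1 was at 637 ± 63.2 TPM and ITGB4 at 457 ± 57.4 TPM (SD, n = 3 each), with ITGB1 the higher in every replicate. A processed pseudogene of ITGB1 on chromosome 19, ITGB1P1, was listed with 167, 127 and 83 reads, beside 17207, 14919 and 12156 for ITGB1. The counting could have split reads of the parent gene between both, which was not tested.

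The alpha chains of collagen receptors were lower than ITGA6 and ITGA3. ITGA2, the main collagen receptor of epithelial cells, was measured at 48.9, 47.3 and 44.8 TPM. ITGA10, known from cartilage, was measured at 17.7, 21.1 and 16.6 TPM from 475, 582 and 380 reads, above ITGA1, known from smooth muscle and connective tissue, at 3.15, 3.57 and 3.06 TPM. The replicates of these 3 genes did not overlap. ITGA11, a receptor of fibroblasts, had 0, 1 and 3 reads. ITGA1 and ITGA2 lie on chromosome 5 in the same direction with 30.1 kb between them, and PELO, at 25.9 TPM on average, overlaps 4.65% of the canonical ITGA1 transcript in the same direction.

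Of the receptors for RGD, the short peptide by which fibronectin and related proteins are bound, ITGA5 was measured at 79.9, 82.6 and 69.8 TPM and ITGAV at 77.6, 63.8 and 70.6 TPM. They were not separated, with a mean log2 ratio of 0.13 and an SD of 0.21. ITGAV has several beta partners. ITGB5, a vitronectin receptor chain, was measured at 112, 102 and 86.8 TPM. ITGB6, an epithelial chain known for activating latent TGF-beta, was measured at 62.6, 51.6 and 56.4 TPM, and a non-coding gene in the same direction, at 0.0805 TPM on average, overlaps 20.8% of its canonical transcript. ITGB8, which also acts on latent TGF-beta, was measured at 19.4, 18.6 and 18.3 TPM. These 3 chains did not overlap in any replicate, and their order was the same in each. ITGB3, the chain of platelets and osteoclasts, had 4, 0 and 0 reads. Another gene in the same direction, listed at 0 throughout, overlaps 38.1% of its canonical transcript, and how reads from that stretch were assigned is not given in the sources used here. No replicate held a read of ITGA8, and a limit of 3 reads puts its level at no more than 0.103 TPM.

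Chains known from leukocytes and platelets were low or had no partner. ITGAE, which pairs with ITGB7 on lymphocytes of epithelia, was measured at 12.9, 13.7 and 11.8 TPM, while ITGB7 had 2, 3 and 4 reads and a mean of 0.218 TPM. The ITGB7 transcript overlaps ZNF740 on the opposite strand over 52.4% of its length, and whether the counting used strand is not given in the sources used here. ITGB2, the shared beta chain of leukocytes, was measured at 2.75, 4.07 and 2.85 TPM, with 69, 105 and 61 reads. ITGAX was measured at 0.737, 0.837 and 1.25 TPM, so that replicate 3 alone was above 1 TPM, from 18, 21 and 26 reads. ITGAL, ITGAM and ITGAD, the other partners of ITGB2, had 1, 11 and 0 reads over all replicates. ITGAM, ITGAX and ITGAD lie in a row on chromosome 16 within gaps of 22.2 and 10.3 kb. ITGA4, a receptor chain of leukocytes and other cells for VCAM-1 and fibronectin, was measured at 3.48, 2.79 and 2.44 TPM and was not separated from ITGA1. Beside these values, the leukocyte marker CD3E had 0 reads and PTPRC, present on nearly all leukocytes, had a mean of 0.0728 TPM, while CSF1R and CD14 had 3.49 and 1.96 TPM. Their part in the levels of these chains was not tested, and in bulk RNA a low level in all cells and a higher level in few cannot be told apart. ITGA2B of platelets had 7, 1 and 0 reads, and ITGA9 had 4, 1 and 0.

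The levels of single chains limit which receptors can form. Of the 24 alpha-beta pairs known in human cells, 12 had both chains at or above 1 TPM, 11 had 1 chain and 1 had neither. The 12 were 8 of the 12 pairs with ITGB1 (those of ITGA1, ITGA2, ITGA3, ITGA4, ITGA5, ITGA6, ITGA10 and ITGAV), the pair of ITGA6 with ITGB4, and ITGAV with ITGB5, ITGB6 and ITGB8. By ligand these were 3 of 4 laminin receptors, 3 of 4 collagen receptors, 5 of 8 RGD receptors, 1 of 3 pairs of the ITGA4 and ITGA9 group and 0 of 5 leukocyte pairs. Taking the scarcer chain in each replicate as the level a pair allows, ITGA6 with ITGB4 allowed 596, 615 and 473 TPM, limited by ITGB4 and with the highest mean as deposited. ITGA6 with ITGB1 allowed 583, 492 and 484 TPM, limited by ITGB1, and ITGA3 with ITGB1 allowed 334, 363 and 256 TPM, limited by ITGA3. The 2 pairs of ITGA6 were not separated from each other, since the pair with ITGB1 was higher in replicate 3, and they draw on the same alpha chain. With canonical lengths the order of their means turned, to 631 TPM with ITGB1 and 457 TPM with ITGB4. The remaining 9 pairs allowed between 2.91 TPM (ITGA4 with ITGB1) and 77.4 TPM (ITGA5 with ITGB1) on average. Of these 9, ITGB6 and ITGB8 were the scarcer chain in their pairs with ITGAV, and the alpha chain was the scarcer in the others, in every replicate.

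**Figure D3:**
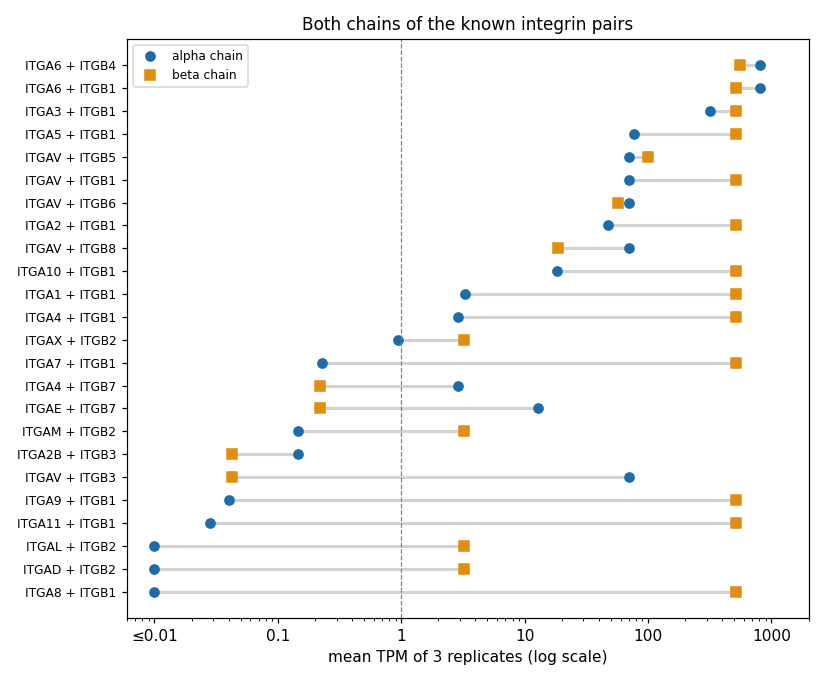
Mean TPM of the alpha chain (circle) and the beta chain (square) of the 24 known integrin pairs on a log axis, ordered by the scarcer chain, with the cutoff of 1 TPM as a dashed line and values of 0.01 or less drawn at 0.01. Both chains lie right of the line in 12 pairs, and the 3 highest are laminin receptors.

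The chains were close to balance in sum. All 18 alpha chains summed to 1486, 1424 and 1183 TPM and all 8 beta chains to 1376, 1283 and 1122 TPM, a ratio of 1.08 ± 0.0273 (SD, n = 3). With canonical lengths the ratio was 0.934 ± 0.0346 (SD, n = 3), on the other side of 1. The 12 alpha chains that can pair with ITGB1 exceeded it by a factor of 2.60 ± 0.234 (SD, n = 3), or 1.81 ± 0.165 (SD, n = 3) with canonical lengths. Without ITGA6, which ITGB4 also takes up, the other 11 summed to 0.969, 1.19 and 0.957 of ITGB1 in replicates 1, 2 and 3, so that the sum was not separated from ITGB1 itself as deposited. With canonical lengths the sum was 0.718, 0.881 and 0.709 of ITGB1, below it in every replicate and separated from it. In both cases the sum includes ITGAV, which ITGB5, ITGB6 and ITGB8 take up as well. ITGA6 exceeded ITGB4 by a factor of 1.52, 1.34 and 1.49 in the replicates, larger than the spread between them. It reached 75.1 ± 1.60% (SD, n = 3) of the sum of ITGB1 and ITGB4 as deposited. With canonical lengths ITGA6 was lower against that sum, at a ratio of 0.604 ± 0.0141 (SD, n = 3). ITGB5, ITGB6, ITGB8 and ITGB3 together exceeded ITGAV by a factor of 2.49 ± 0.206 (SD, n = 3). These are ratios of RNA, and protein was not measured.

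Among the laminin chains, LAMB3 and LAMA3 made up 69.8 ± 0.337% (SD, n = 3) of the TPM of the 11 chains. LAMB1, the beta chain of the laminins found most widely, was measured at 200, 205 and 172 TPM. LAMC1, the common gamma chain, was measured at 145, 148 and 120 TPM, below LAMB1 in every replicate. LAMA5, the alpha chain of most adult epithelial basement membranes, was measured at 83.8, 101 and 69.6 TPM. LAMB2 was measured at 34.5, 32.8 and 30.1 TPM, a ratio to LAMB1 of 0.169 ± 0.00800 (SD, n = 3). LAMA1, an alpha chain of embryonic membranes, was measured at 7.89, 8.43 and 6.60 TPM from 429, 471 and 305 reads. As deposited the order LAMB3, LAMA3, LAMB1, LAMC1, LAMA5, LAMB2, LAMA1 was the same in every replicate, and each neighbour was separated from the next by more than the SD of their log2 ratio. With the short length of LAMA3 and the longest of LAMB3, LAMA3 came before LAMB3, again separated.
The 4 other chains were below 1 TPM. LAMA2, the chain of muscle and nerve, was measured at 0.633, 0.690 and 0.541 TPM from 33, 37 and 24 reads. LAMA4, the chain of vessels and fat, likewise had 0 reads throughout, for a limit of 0.0931 TPM. LAMC3 had 0, 0 and 3 reads and LAMB4 0, 5 and 2. LAMB4 lies 20.3 kb from LAMB1 on chromosome 7, on the same strand, with means of 0.0783 and 193 TPM.

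Of 13 known trimers made only of chains on the list, 6 had every chain at or above 1 TPM, namely laminins 111, 121, 311, 321, 511 and 521. The laminin of LAMA3 and LAMB3 is not among the 13. Of the 6, laminin 311 allowed most, at 145, 148 and 120 TPM, limited by LAMC1. Each level assumes that no other trimer takes up the chains. Laminin 511 allowed 83.8, 101 and 69.6 TPM, limited by LAMA5. Laminins 321 and 521 shared a limit in LAMB2 at 32.5 ± 2.21 TPM, and laminins 111 and 121 one in LAMA1 at 7.64 ± 0.944 TPM (SD, n = 3 each). The other 7 trimers each lacked LAMA2, LAMA4 or LAMC3. LAMC1 is a chain of all 6, and LAMA1, LAMA3 and LAMA5 together exceeded it by a factor of 3.52 ± 0.0415 as deposited and of 6.07 ± 0.128 with the short length of LAMA3 (SD, n = 3 each), whereas LAMA1 and LAMA5 alone reached 66.9 ± 6.19% (SD, n = 3) of it. LAMB3 exceeded LAMB1 by a factor of 3.44 ± 0.148 (SD, n = 3). LAMB3 is known from 1 trimer only, with LAMA3, and as deposited LAMA3 was the scarcer of both at 393 ± 42.7 TPM (SD, n = 3).

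**Figure D4:**
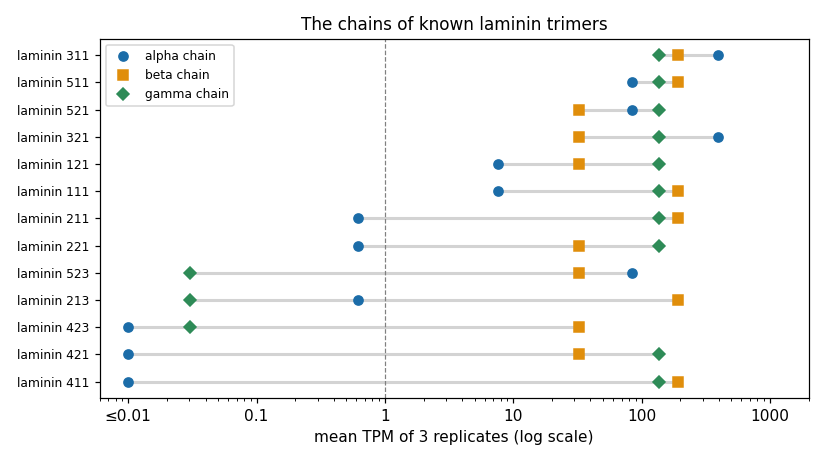
Mean TPM of the alpha, beta and gamma chain (circle, square and diamond) of 13 known laminin trimers on a log axis, ordered by the scarcest chain, with the cutoff of 1 TPM as a dashed line and values of 0.01 or less drawn at 0.01. All chains lie right of the line in 6 trimers, with laminin 311 limited by its gamma chain and laminin 511 by its alpha chain.

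The other hemidesmosome genes were high in every replicate. PLEC, the cytolinker that binds ITGB4, was measured at 486, 534 and 407 TPM and COL17A1, the transmembrane collagen of hemidesmosomes, at 431, 432 and 343 TPM. CD151, a tetraspanin that binds ITGA3 and ITGA6, was measured at 286, 287 and 245 TPM. POLR2L, at 195 TPM on average, overlaps 9.45% of the canonical CD151 transcript on the opposite strand. As deposited the order PLEC, COL17A1, CD151, DST was the same in each replicate and each neighbour was separated from the next. ITGB4 exceeded COL17A1 by a factor of 1.38, 1.42 and 1.38. The 8 genes ITGA6, ITGB4, LAMA3, LAMB3, COL17A1, PLEC, DST and CD151 made up 68.4 ± 0.753% (SD, n = 3) of the TPM of all 41.

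Partners of these proteins were read from 4 lists. Of 24 integrin-binding adaptors, 23 had a mean of at least 1 TPM, led by the tensin TNS4 at 837 ± 167 TPM and the alpha-actinin ACTN1 at 332 ± 50.1 TPM (SD, n = 3 each). DAB2 was lowest among those above the cutoff at 1.48 TPM on average, with 0.965 TPM in replicate 1. FERMT3, the kindlin of blood cells, was below the cutoff at 0.383 TPM. All 6 genes listed as other laminin receptors had a mean above it. They ran from SDC2 at 1.21 TPM and BCAM at 2.79 TPM to RPSA at 531 TPM and the syndecan SDC1 at 762 TPM. SDC2 was at 0.675 TPM in replicate 3. How much of the product of any of them, RPSA included, acts as a laminin receptor was not measured. Of 14 other matrix ligands, 11 had a mean above 1 TPM, though not each of them in every replicate. The highest were thrombospondin 1 (THBS1) at 732 TPM and fibronectin (FN1), the ligand of ITGA5, at 601 TPM, while vitronectin (VTN) and the laminin-binding nidogen NID2 had 0 reads in every replicate. Of 6 other tetraspanins that bind integrins, 4 were above 1 TPM, with CD63 at 340 TPM and CD82 at 104 TPM the highest and CD37 and CD53, both known from leukocytes, the lowest at 0 and 0.414 TPM.

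Replicate 3 was lower than the others over most genes. The log2 ratio of replicate 3 to the mean of replicates 1 and 2 had a median of -0.25 over the 22 genes of the list with a mean from 10 TPM up, and of -0.24 over all 8809 such genes of the table. Replicate 3 was the lowest for 20 of these 22 genes, and for 84.3% of all protein-coding genes at that level. The exceptions were ITGAV and ITGB6, with log2 ratios of -0.001 and -0.02 and counting errors of 0.03 and 0.05. The other partners of ITGAV at this level, ITGB8, ITGB1 and ITGB5, had log2 ratios of -0.05, -0.15 and -0.30. At the other end stood ITGA3 at -0.45 and LAMA5 at -0.41, with counting errors of 0.02 and 0.03. The median SD of log2(TPM + 1) was 0.16 over the 26 genes at or above 1 TPM, and likewise 0.16 over all 11360 protein-coding genes at that level. For the 22 genes the SD was 8.08 times what counting error alone gives (median), and 2.85 times after each replicate was divided by its median ratio to the mean.

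**Figure D5:**
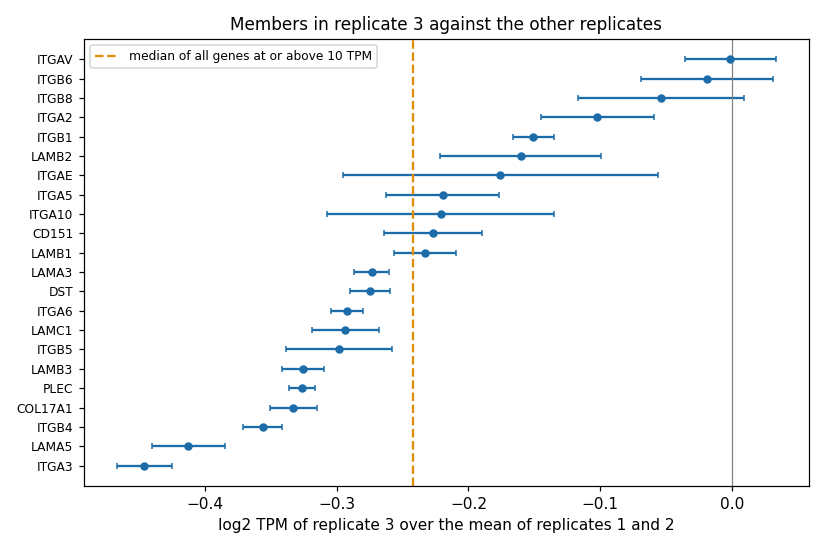
Log2 ratio of replicate 3 to the mean of replicates 1 and 2 for the 22 genes of the list with a mean from 10 TPM up, with bars for the counting error (1 SE) and the median of all genes at that level as a dashed line. ITGAV, ITGB6 and ITGB8 lie nearest to 0, and ITGA3 and LAMA5 lie lowest.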

How the data were processed

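RNA-seq of 3 replicates of 1 condition was analysed. Libraries were made by the authors from 300 ng of RNA after removal of ribosomal RNA, and the paper names Seq2science for the reads. The submitters' processing notes name hg38, GRCh38.p14, STAR, fastp and MultiQC. Neither the release of the annotation nor whether counting used strand is given in the sources used here. The authors deposited TPM per gene, summing to 1000000 in each replicate.

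TPM was multiplied by the length of the longest GENCODE transcript, less 1 base per exon, and divided by the smallest product above 0, which was taken as 1 read. This gave whole numbers (within 0.01 reads) for 100% of the 62700 annotated genes in each replicate. The share of canonical transcripts overlapped by other genes was computed from the same annotation. A count of 0 was given a limit of 3 reads. Counting errors and limits cover counting error only. Where several values of TPM are given for a gene, they are in the order of replicates 1, 2 and 3.

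With 1 condition there was no test. An exact sign-flip test of 3 paired values cannot give a two-sided p under 0.25, so none was run. Neighbours in the order of levels were called separated where every replicate had the same order and the mean log2 ratio exceeded its SD. The pairs and trimers are those known from textbooks. The genes, lists, pairs and trimers were chosen with earlier results of these data known. Every gene of the list is named, with the value in each replicate where its mean was at least 1 TPM, and partners by the highest and lowest 2 of each of 4 lists. Marker lists covered 7 cell types. The level of 1 leukocyte marker is not reported here. Scripts were tested on simulated reads. Python 3.11.15 with numpy 2.4.6, pandas 2.3.3 and matplotlib 3.10.9 was used.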

Additional observations from a re-analysis of the deposited data

How the results depend on the processing

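No paired analysis was possible because the labels give 1 condition, with no second group to pair it with. Ratios between genes were taken within each replicate. Over 12 alternatives, between 26 and 28 genes passed the cutoff, the number of pairs lay between 12 and 13 and the number of trimers between 6 and 8. The genes that changed were ITGAX (with a cutoff of 0.5 TPM, with TPM rescaled to protein-coding genes, without mitochondrially encoded genes and without replicate 1) and LAMA2 (with a cutoff of 0.5 TPM). With ITGAX above the cutoff, its pair with ITGB2 was allowed. The number of separated neighbours was 19 of 22 and lay between 19 and 20 over 5 alternatives.

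Canonical lengths left the counts of genes, pairs and trimers at 26, 12 and 6 and moved ratios between chains. These lengths, with all genes scaled to the same sum again, moved the median of all genes at or above 10 TPM by -0.30 on the log2 scale, a shift that ratios between genes do not carry. The log2 ratio of the 12 alpha chains to ITGB1 moved from 1.38 to 0.85. Without ITGA6 it reversed from 0.05 to -0.39, and it lay between -0.05 and 0.10 when a replicate was left out, reversed to -0.0541 without replicate 2. The ratio of ITGB3, ITGB5, ITGB6 and ITGB8 to ITGAV moved from 1.32 to 1.14 and that of LAMB2 to LAMB1 from -2.57 to -2.82. That of LAMA3 to LAMB3 moved from -0.75 to -0.86, and reversed to 0.17 with the short LAMA3 and the longest LAMB3 transcript. Canonical lengths could not move ITGA6 over ITGB4 or ITGB4 over COL17A1, since the longest transcripts of these genes are as long as the canonical ones. Leaving out a replicate gave log2 ratios of 0.50 to 0.59 for the first and 0.47 to 0.49 for the second. These ranges only restate the spread of the same replicates.

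The median SD of log2(TPM + 1) fell from 0.161 to 0.0838 with TPM rescaled to protein-coding genes and to 0.0739 with each replicate divided by its median ratio, an alternative chosen after seeing the data. It lay between 0.0663 and 0.171 when a replicate was left out, lowest without replicate 3. Depth limits the genes below 1 TPM, of which 3 had 0 reads and 12 had between 1 and 94 reads over all replicates.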
